A study of Mus musculus with 21 samples.

Results

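The villin and gelsolin family is a group of proteins that bind actin through repeated gelsolin-like domains. Its 8 members in the mouse are Vil1, Vill, Avil, Gsn, Capg, Scin, Svil and Flii, and they were taken by gene symbol from the 24509 genes listed in the expression tables of both stages. The members were selected on a measured value, the higher RPKM of Vil1 in null than in flox hearts, so the difference of Vil1 between null and flox hearts is given as a description with no test. The tests concern the other 7 members, and the binding of CHD4 was not used in the choice.

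CHD4 is the ATPase subunit of the nucleosome remodelling and deacetylase complex, a chromatin regulator that is known mainly for holding genes at a low level of transcription. Polyadenylated RNA of cardiac tissue from CD1 mouse embryos was sequenced on stranded libraries. The control hearts carried Chd4 flox/flox, in which exons of Chd4 are flanked by recombination sites, and the null hearts carried Chd4 Δflox/Δflox, in which the floxed part is deleted. There were 5 flox and 5 null libraries at embryonic day 9.5 (E9.5), from 200 ng of RNA each, and 3 flox and 3 null libraries at E10.5, from 300 ng each. The line that drove recombination, and so the cells in which it took place, are not given in the sources used here. Sites bound by CHD4 came from chromatin immunoprecipitation of wild-type hearts at E10.0, as 3 peak lists from 2 biological samples, so the 3 lists are not 3 independent samples.

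Library depth was 17.1 to 23.5 M reads. Chd4 was at 92.4 RPKM ± 1.33 (SD, n = 5) in flox and 45.7 ± 3.08 (n = 5) in null hearts at E9.5, and at 77.6 ± 12.3 and 52.7 ± 4.61 (SD, n = 3 each) at E10.5. RPKM is reads per kilobase of gene and per M reads. Every null library lay below every flox library for Chd4 at both stages, and the fall was called by limma at E9.5 only (limma adjusted p = 1.69e-06 at E9.5 and 0.116 at E10.5). The authors' deposited table lists Chd4 at E10.5 with a log2 ratio of control over null of 0.50 and an adjusted p of 0.0220. Cardiomyocyte markers were high throughout: the 6 genes of that list summed to 11940 to 14667 RPKM in flox and 9711 to 12593 in null libraries at E9.5. At E10.5 they summed to 5239 to 10346.5 RPKM in flox and 8349 to 11116 in null libraries. At E9.5 limma called 3 of the 6 down in null hearts (Myh6, Nkx2-5 and Actc1), while 10.3% of all tested genes were called down. The median difference of the 6 was -0.28 there and 0.22 at E10.5, where 0 were called. In bulk hearts, a change in the number of cells of a type and a change in the RNA per cell cannot be told apart.

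Actin filaments are built and taken down at their ends, and proteins of this family sever filaments, cap their fast-growing ends or, in some members, tie filaments into bundles, mostly under the control of calcium. Villin, encoded by Vil1, carries a headpiece domain after its gelsolin-like domains and is best known as an actin bundler of the microvilli of intestinal and renal brush borders. Gelsolin, encoded by Gsn, severs and caps filaments in many tissues including heart, Capg caps without severing, Scin (adseverin) severs filaments in secretory cells, and Avil (advillin) marks sensory neurons. Svil (supervillin) links actin and myosin to membranes, and Flii (flightless I) joins gelsolin-like domains to leucine-rich repeats.

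Vil1, on the forward strand of chromosome 1 (chr1:74409384-74435560, GRCm38.p6, the assembly of mm10), was low in flox hearts and among the family's abundant transcripts in null hearts. Its RPKM at E9.5 was 2.32, 1.48, 2.12, 0.541 and 1.51 in flox replicates 1 to 5 and 30.0, 20.5, 25.6, 21.1 and 20.6 in null replicates 1 to 5. Its RPKM at E10.5 was 0.144, 0.538 and 0.261 in flox replicates 1 to 3 and 20.9, 19.6 and 16.7 in null replicates 1 to 3. The groups were far apart at both stages, since the lowest null library of either stage stood above the highest flox library. The means were 1.59 ± 0.694 (SD, n = 5) against 23.5 ± 4.18 RPKM (n = 5) at E9.5, a 14.8-fold difference, and 0.314 ± 0.203 (n = 3) against 19.1 ± 2.13 RPKM (n = 3) at E10.5, a 60.8-fold difference. The reads behind these levels numbered 34 to 154 in flox and 1080 to 1830 in null libraries at E9.5, and 8 to 30 against 944 to 1167 at E10.5, so the larger ratio at E10.5 rests on few flox reads. Levels of the stages stand side by side with no test, since stage, table and RNA amount go together.

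On the scale of log2(RPKM + 0.5), which understates differences of genes near 0.5 RPKM, Vil1 was higher in null hearts by 3.58 (SE 0.24) at E9.5 and by 4.61 (SE 0.22) at E10.5. The difference was 1.03 larger at E10.5 (SE 0.36). In the authors' deposited table, which lists the log2 ratio of control over null, Vil1 stood at -2.54 at E9.5 and at -5.09 at E10.5. The authors' E9.5 ratio is smaller in size than the difference fitted here, and whether the authors shrank their ratios is not stated. At E10.5 the mean of Vil1 in flox hearts was under 0.5 RPKM, the lowest mean over both genotypes with which a gene was tested, and it entered the fit through the null libraries.

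Vill, on chromosome 9 (chr9:119052729-119071525, forward strand), encodes a villin-like protein and rose in null hearts at both stages. In the same order of replicates its RPKM at E9.5 was 3.31, 3.28, 3.64, 3.06 and 3.35 in flox and 6.49, 9.54, 9.58, 8.28 and 7.60 in null hearts. For E10.5 it was 2.80, 3.57 and 4.80 in flox and 14.9, 10.9 and 14.9 in null hearts. No null library of either stage fell into the flox range, and the flox libraries at E9.5 were tightly grouped. The mean rose 2.49-fold at E9.5, from 3.33 ± 0.206 (n = 5) to 8.30 ± 1.32 RPKM (n = 5), and 3.63-fold at E10.5, from 3.72 ± 1.01 (n = 3) to 13.5 ± 2.31 RPKM (n = 3). In the limma fits the difference was 1.19 at E9.5 (SE 0.10, adjusted p = 6.33e-05) and 1.74 at E10.5 (SE 0.22, adjusted p = 0.00957) on the log2(RPKM + 0.5) scale. With the level of erythroid markers in the fit the call at E9.5 was lost (1.04, adjusted p = 0.0557).

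Capg, on chromosome 6 (chr6:72538282-72562983, forward strand), the capping protein of the family, rose at both stages by less. Flox hearts of E9.5 had 4.72, 4.34, 6.26, 5.07 and 4.02 RPKM, against 9.33, 10.4, 7.68, 8.21 and 7.31 RPKM in null hearts. Flox hearts of E10.5 had 4.44, 5.14 and 5.06 RPKM, against 13.5, 10.4 and 14.2 RPKM in null hearts. Again no null library overlapped the flox range, with the highest flox library at E9.5, replicate 3, closest to the null group. The mean rose 1.76-fold at E9.5, from 4.88 ± 0.866 (n = 5) to 8.58 ± 1.26 RPKM (n = 5), and 2.61-fold at E10.5, from 4.88 ± 0.383 (n = 3) to 12.7 ± 2.02 RPKM (n = 3). The limma difference was 0.76 at E9.5 (SE 0.12, adjusted p = 0.00259) and 1.29 at E10.5 (SE 0.17, adjusted p = 0.0110). The call at E10.5 was lost when flox replicate 1 (adjusted p = 0.0669) or flox replicate 3 (adjusted p = 0.0626) was left out, and with the level of endoderm markers in the fit (adjusted p = 0.0588). The call at E9.5 was lost with the level of erythroid markers in the fit (0.54, adjusted p = 0.512).

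**Figure D1:**
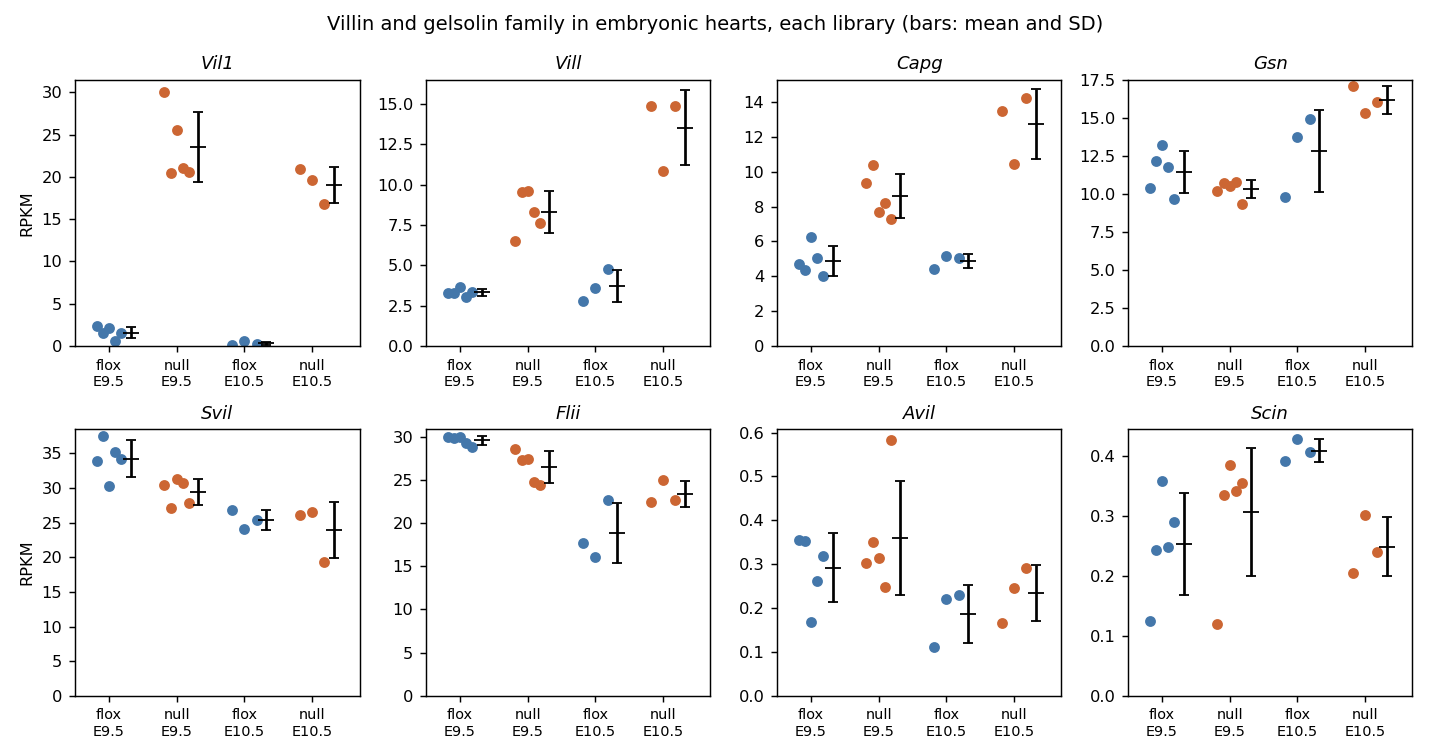
Level of each member in RPKM (vertical axis, linear and from 0, its own scale per gene) in every flox (blue) and null (orange) library at E9.5 and E10.5. Points are libraries and the bars beside them are the mean and SD. For Vil1, Vill and Capg every null library lies above every flox library at both stages.

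The promoters of the 3 genes that were higher in null hearts, and that of Flii, with a strong CHD4 peak at or just before it, are shown. The sections on level and on binding turn on them. Each line is the 250 bases before the annotated start, 5′ to 3′ on the strand of the gene, from RefSeq on GRCm38.p6. The windows are chr1:74409134-74409383 for Vil1, chr9:119052528-119052777 for Vill, chr6:72549397-72549646 for Capg and chr11:60727264-60727513, on the reverse strand, for Flii. The starts used for Capg (chr6:72549647) and Vill (chr9:119052778) lie inside the gene spans given above, which begin at chr6:72538282 and chr9:119052729. Capitals mark the CArG box (the element known to bind serum response factor) in Vil1 and the motif CANNTG in Capg. In Flii they mark the 204 bases under the list 1 interval of a CHD4 peak common to the 3 lists. The list 3 peak begins inside this window (chr11:60727313) and the list 2 peak outside it (chr11:60727529).
Vil1: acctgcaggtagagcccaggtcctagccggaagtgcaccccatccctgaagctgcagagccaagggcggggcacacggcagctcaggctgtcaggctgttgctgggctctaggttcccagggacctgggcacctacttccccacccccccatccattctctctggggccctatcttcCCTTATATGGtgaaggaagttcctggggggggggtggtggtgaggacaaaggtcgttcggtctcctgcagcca
Vill: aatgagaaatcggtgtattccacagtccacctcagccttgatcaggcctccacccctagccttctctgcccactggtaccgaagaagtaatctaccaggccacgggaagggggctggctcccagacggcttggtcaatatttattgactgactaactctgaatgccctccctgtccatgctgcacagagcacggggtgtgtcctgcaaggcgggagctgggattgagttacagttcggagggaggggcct
Capg: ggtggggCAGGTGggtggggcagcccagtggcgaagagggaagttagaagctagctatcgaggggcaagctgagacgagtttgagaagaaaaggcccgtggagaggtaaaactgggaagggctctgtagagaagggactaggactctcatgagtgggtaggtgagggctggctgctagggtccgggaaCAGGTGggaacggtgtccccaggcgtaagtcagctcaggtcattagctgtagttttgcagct
Flii: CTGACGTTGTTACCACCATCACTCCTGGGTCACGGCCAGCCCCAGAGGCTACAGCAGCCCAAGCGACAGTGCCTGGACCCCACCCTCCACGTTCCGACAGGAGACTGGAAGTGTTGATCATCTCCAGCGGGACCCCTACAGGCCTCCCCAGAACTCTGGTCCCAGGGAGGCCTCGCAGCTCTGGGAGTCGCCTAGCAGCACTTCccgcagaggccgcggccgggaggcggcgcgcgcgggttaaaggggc

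Of the 8 members, 7 had a promoter in the RefSeq table. Gsn had 3 starts and so 3 windows, and a member counted as holding a motif if any of its windows did. The shares over all promoters are per window. These windows were searched on both strands for 6 motifs: the CArG box, CANNTG (the E-box, bound by basic helix-loop-helix factors), TATAAA (the TATA box), GGGCGG (the GC box, bound by Sp factors), CATTCC (the core bound by TEAD factors) and AGATAA (a site of GATA factors). A CArG box can hold TATAAA within it. The match in Vil1 is CCTTATATGG, at positions -73 to -64 from the start, and Vil1 was the only 1 of the 7 members with a CArG box, which 1.47% of 32851 annotated promoter windows of this length hold. Vil1 also held GGGCGG at -187 to -182, a motif present in 32.7% of windows and in 3 of the 7 members (Vil1, Gsn and Scin). Capg held CAGGTG at -243 to -238 and again at -62 to -57. CANNTG occurs in 66.2% of windows and was found in Capg and Gsn but not in the windows of Vil1 and Vill. TATAAA (12.4% of windows) and CATTCC (12.6%) were in none of the 7, AGATAA (9.99%) was in Avil, and Vill and Flii held none of the 6 motifs. A match describes the letters of this window and is no measure of binding.

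The other members did not follow Vil1. Gelsolin (Gsn) stood at 10.4, 12.1, 13.2, 11.8 and 9.68 RPKM in flox and 10.2, 10.7, 10.5, 10.8 and 9.36 RPKM in null hearts of E9.5. In the E10.5 hearts it stood at 9.81, 13.7 and 14.9 RPKM in flox and 17.1, 15.3 and 16.1 RPKM in null hearts. The groups overlapped at E9.5, and at E10.5 the lowest null value was a little above the highest flox value. The difference of Gsn did not pass the limma test at either stage, at -0.14 (95% interval -0.32 to 0.05, adjusted p = 0.282) at E9.5 and 0.34 (-0.07 to 0.75, adjusted p = 0.284) at E10.5.

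Flii was at 29.5 ± 0.534 RPKM (SD, n = 5) in flox and 26.5 ± 1.83 (n = 5) in null hearts at E9.5. Its highest null library, at 28.5 RPKM, was just below its lowest flox library, at 28.7 RPKM, so the groups did not overlap. At E10.5 Flii was at 18.8 ± 3.48 (n = 3) in flox and 23.3 ± 1.45 RPKM (n = 3) in null hearts, with an overlap at flox replicate 3 (22.7 RPKM). Neither difference passed the test, with -0.16 (SE 0.05, limma adjusted p = 0.0649) at E9.5 and 0.32 (SE 0.16, limma adjusted p = 0.277) at E10.5. Without null replicate 1 the E9.5 difference of Flii was -0.19 and passed (limma adjusted p = 0.0360).

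Svil, the longest transcript of the family at 7389 bp in the deposited lengths, stood at 33.9, 37.6, 30.3, 35.2 and 34.2 RPKM in flox and 30.5, 27.1, 31.3, 30.7 and 27.8 RPKM in null hearts of E9.5. It fell by 0.21 on the log2 scale (SE 0.07, limma adjusted p = 0.0488), and the groups overlapped at flox replicate 3. This call sat at the threshold and was lost in 17 of 23 alternatives, among them the removal of any 1 library other than flox replicate 3 (adjusted p between 0.0503 and 0.113). At E10.5 Svil was at 25.4 ± 1.39 (n = 3) and 24.0 ± 4.05 RPKM (n = 3), and its difference of -0.09 did not pass (limma adjusted p = 0.758). The spread of the null hearts at E10.5 came from replicate 3, at 19.3 RPKM against 26.1 and 26.5 RPKM.

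Avil and Scin were near the limit of detection and entered no fit, with means under 0.5 RPKM in every group. Avil ranged from 0.169 to 0.356 RPKM in flox and from 0.248 to 0.584 in null libraries at E9.5, and from 0.111 to 0.230 and 0.166 to 0.292 RPKM at E10.5, so the groups overlapped at both stages. Scin ranged from 0.125 to 0.359 RPKM in flox and from 0.119 to 0.385 in null libraries at E9.5. In E10.5 hearts its flox values, 0.392, 0.429 and 0.406 RPKM, were above its null values, 0.205, 0.302 and 0.240 RPKM, on 21 to 23 reads against 11 to 17 reads.

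Of the 7 members other than Vil1, 5 were tested at each stage. At E9.5 the limma test called 3 of them, Vill and Capg up and Svil down, while 17.2% of all 13643 tested genes were called (6.87% up, 10.3% down). At E10.5 it called 2, Vill and Capg, both up, while 2.07% of 14100 genes were called (1.77% up, 0.305% down). Among the tested members, null and flox libraries did not overlap for Vill and Capg (null above) and Flii (null below) at E9.5, against 14.1% of genes, 5.50% with null above and 8.57% with null below. At E10.5 they did not overlap for Vill, Capg and Gsn, all with null above, against 31.3% of genes, 13.9% with null above and 17.4% with null below. The median difference over the 5 tested members was -0.14 at E9.5 and 0.34 at E10.5, against -0.04 and -0.03 over all tested genes. The authors' deposited table lists Vill at -1.26 and -1.68 and Capg at -0.77 and -1.28 (log2 of control over null, E9.5 and E10.5), and holds no row for the 5 remaining members. That table is limited to adjusted p values up to 0.05.

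**Figure D2:**
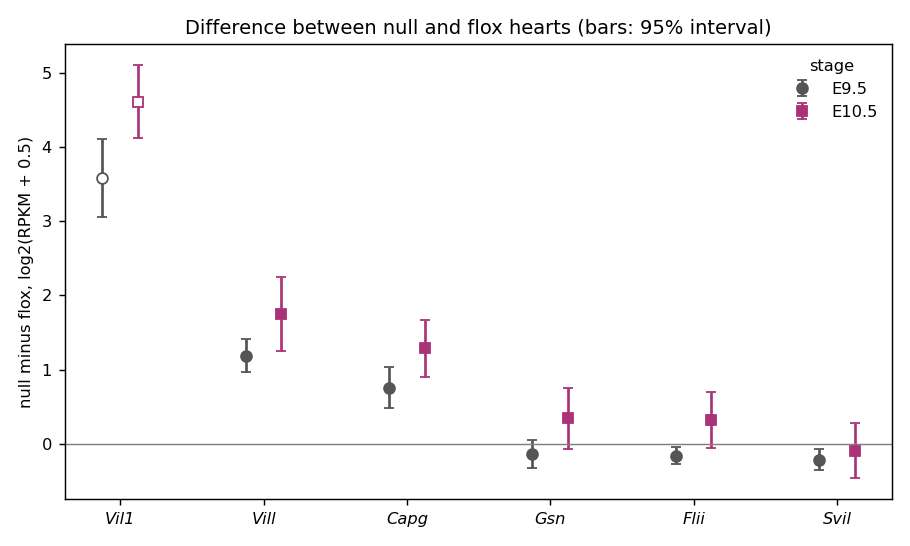
Null minus flox difference on the log2(RPKM + 0.5) scale (vertical axis) for the 6 members that passed the filter, at E9.5 (circles) and E10.5 (squares), with 95% intervals. Open symbols mark Vil1, which is described and not tested. Vill and Capg lie above 0 at both stages, and Gsn, Flii and Svil lie close to 0.

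Whether the difference between null and flox hearts itself changed from E9.5 to E10.5 was asked with an interaction of genotype and stage in 1 limma fit of all 16 RNA libraries. It was called for 0 of the 5 tested members other than Vil1, while 3.82% of 13886 genes were called (2.51% with a more positive difference at E10.5 and 1.31% with a more negative one). At an unadjusted p under 0.05 it was 4 of the 5, Vill, Gsn, Capg and Flii, each with a more positive difference at E10.5. The share of all genes at that unadjusted threshold was not computed. Limma with voom on the recovered reads also called 0. The shift was 0.56 for Vill (SE 0.22, adjusted p = 0.126), 0.53 for Capg (SE 0.20, adjusted p = 0.116), 0.48 for Gsn (SE 0.17, adjusted p = 0.102) and 0.48 for Flii (SE 0.13, adjusted p = 0.0556). For Svil it was 0.12 (adjusted p = 0.630). These calls depended on scaling and on single libraries: Flii was called after scaling each library to a common median (adjusted p = 0.0427) and without flox replicate 3 of E10.5 (adjusted p = 0.0145), and Vill was called without that library (adjusted p = 0.0485). Without null replicate 2 of E10.5, Vill (adjusted p = 0.0487) and Capg (adjusted p = 0.0446) were called.

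RPKM is per length, so the members can be ranked by level. In flox hearts at E9.5 the order was Svil, Flii, Gsn, Capg, Vill, Vil1, Avil and Scin, and the ranges of neighbours in this order were apart except for Avil and Scin. In null hearts at E9.5 Vil1 took rank 3, where its range overlapped that of Flii above it and was apart from that of Gsn below it. Gsn, Capg and Vill followed, each overlapping the next. In flox hearts at E10.5 Vil1 took rank 7, with a range that overlapped those of Scin and Avil, and in null hearts it took rank 3, between Flii, from which it was apart, and Gsn, which it overlapped.

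The summed level of the 8 members was 85.6 ± 2.54 RPKM (n = 5) in flox and 107 ± 6.95 (n = 5) in null hearts at E9.5, and 66.5 ± 6.32 (n = 3) and 109 ± 5.54 (n = 3) at E10.5. Vil1 made up 1.86% ± 0.814 of that sum in flox and 21.8% ± 2.64 in null hearts at E9.5, and 0.477% ± 0.325 and 17.4% ± 1.2 at E10.5. The shares of Vill rose from 3.89% ± 0.272 to 7.76% ± 1.29 at E9.5 and from 5.54% ± 1.0 to 12.4% ± 2.15 at E10.5. Svil, the largest share in flox hearts, went from 40.0% ± 2.81 to 27.5% ± 1.54 and from 38.4% ± 4.40 to 21.9% ± 3.06. A share can fall because others rise, and these shares are described with no test because Vil1 is part of the sum.

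**Figure D3:**
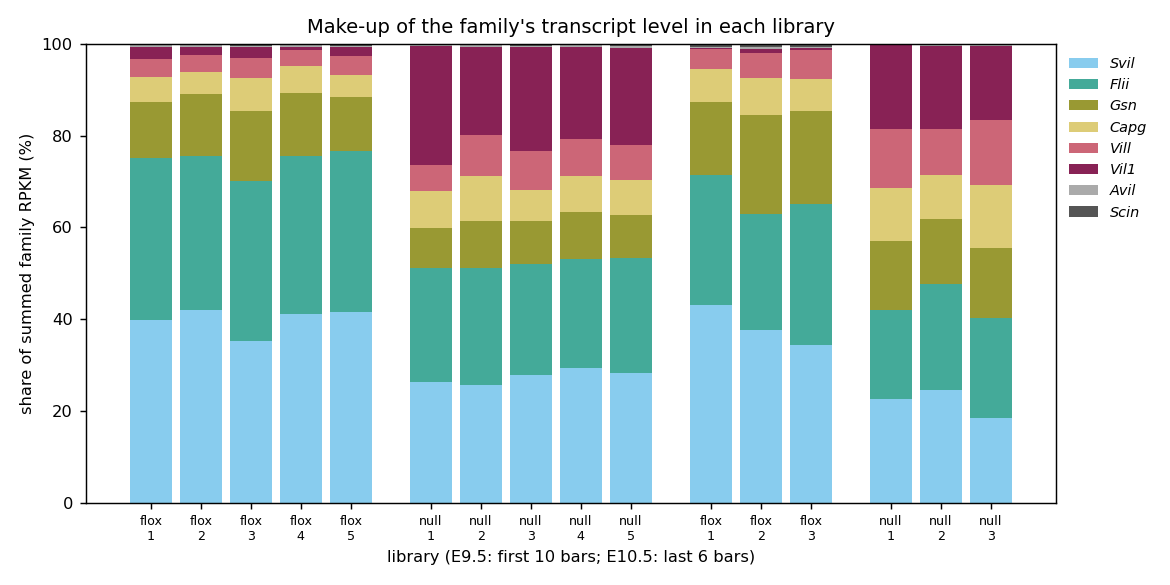
Share of each member in the summed RPKM of the family (vertical axis, percent) in each of the 16 libraries, E9.5 first. Vil1 fills 1.86% of the mean flox library and 21.8% of the mean null library at E9.5, and 0.477% and 17.4% at E10.5.

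Of a list of 36 other regulators of actin filaments, 35 were tested at E9.5 and 7 were called, 4 up and 3 down, with a median difference of 0.00. That share lies near the 17.2% of all tested genes called at E9.5 (6.87% up, 10.3% down). The 4 that rose were Tmsb4x (thymosin beta 4, which binds actin monomers) by 0.45, Lcp1 (L-plastin, a filament bundler of blood cells) by 0.46, Arpc5 (a subunit of the branching Arp2/3 complex) by 0.28 and Diaph3 (a formin that elongates filaments) by 0.35, all on the log2 scale. The 3 that fell were the capping proteins Twf2, at -0.25, and Tmod1, at -0.30, and Cap2, a monomer-binding protein of striated muscle, at -0.38. At E10.5 limma called 0 of 36, with a median of -0.05. There 8 genes had an unadjusted p under 0.05, 3 up and 5 down, and voom also called 0. The 4 with the smallest p at E10.5 were Pls3 (-0.45, limma adjusted p = 0.110), Flnc (0.55, 0.115), Fmnl2 (-0.68, 0.140) and Capza2 (-0.44, 0.160).

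The proteins that work with villin in the brush border were listed apart, as 22 genes for microvillar bundlers, myosins, linkers and the tip complex. At E9.5 10 passed the filter and 1 was called, Eps8l3 (a relative of the capping and bundling protein Eps8), which fell by 0.55 (SE 0.13, limma adjusted p = 0.0187) from 1.63 ± 0.290 to 0.964 ± 0.226 RPKM (SD, n = 5 each), while 17.2% of all tested genes were called. Espnl (a relative of espin) was under the filter with every null above every flox library, at 0.136 ± 0.0483 against 0.647 ± 0.0942 RPKM (n = 5 each) at E9.5 and 0.0892 ± 0.0404 against 0.465 ± 0.0418 RPKM (n = 3 each) at E10.5. Among tested genes such a separation, with null above, was found in 5.50% at E9.5 and in 13.9% at E10.5. After Eps8l3 the smallest p values at E9.5 were those of Myo1e (-0.21, limma adjusted p = 0.137), Slc9a3r2 (0.33, 0.138) and Eps8 (0.39, 0.200). The median of the 10 was 0.06. At E10.5 15 passed the filter and limma called 0, with a median of 0.29. There 3 had an unadjusted p under 0.05, 2 up and 1 down, and voom called 0. Espn (espin, a bundler of microvilli and stereocilia) was at 0.205 ± 0.104 in flox and 0.917 ± 0.351 RPKM in null hearts at E10.5 (0.99, limma adjusted p = 0.110). Eps8l2 was 0.94 higher there (adjusted p = 0.166), Ush1c (harmonin) 0.65 higher (0.221), and Eps8l3 stood at -0.59 (0.171). Ezr (ezrin, the membrane linker of microvilli) held 42.8 ± 8.06 and 50.1 ± 13.5 RPKM at E9.5 and 65.3 ± 4.07 and 73.1 ± 5.04 RPKM at E10.5 in flox and null hearts, and did not pass at either stage. Myo1a, the brush border myosin, stayed under 0.5 RPKM in every group mean.

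Markers of other cell types moved with genotype in part. All 12 erythroid genes were called up in null hearts at E9.5, and their summed level, 6952 to 18496 RPKM in flox and 19109 to 48253 in null libraries, did not overlap. With the erythroid level in the fit at E9.5 the difference of Vil1 was 3.63 (SE 0.46), that of Vill 1.04 (limma adjusted p = 0.0557) and that of Capg 0.54 (adjusted p = 0.512), and the calls of Vill, Capg and Svil (-0.02, adjusted p = 0.985) were lost. Because the erythroid sums of the genotypes do not overlap at E9.5, the effects of erythroid level and genotype cannot be told apart there. At E10.5 limma called 0 of the 12 erythroid genes, as did voom and an unadjusted p under 0.05, and the sums overlapped (14422 to 39489 in flox, 28332 to 81969 RPKM in null). With the erythroid level in that fit Vill and Capg were still called.

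Villin is a classical marker of visceral endoderm and gut, so genes of endoderm and yolk sac were read beside it. At E9.5 9 of 20 such genes were under 0.5 RPKM, including Hnf4a, Foxa1, Foxa2, Cdx2 and Cdh1, and none was without a read. Their sum was 7.64 to 41.9 RPKM in flox and 10.2 to 33.5 in null libraries, and 1 of 11 tested genes, Amn (amnionless, a part of the cobalamin receptor), was called up. At E10.5 the sums were 13.2, 222 and 41.3 RPKM in flox and 54.7, 1599 and 1156 RPKM in null libraries. Of 17 genes tested there limma called 0, voom called 0, and 9 had an unadjusted p under 0.05, all up. The share of all genes at that unadjusted threshold was not computed. In the same order of replicates Vil1 was at 0.144, 0.538 and 0.261 RPKM in flox and 20.9, 19.6 and 16.7 RPKM in null hearts, so the flox library with the highest sum held the most Vil1 of its group and the null library with the lowest sum held the most of its own. The part of endoderm in the level of Vil1 was not tested. With the endoderm level in the fit Vil1 differed by 3.76 (SE 0.23) at E9.5 and by 4.48 (SE 0.32) at E10.5, and Capg lost its call at E10.5 (1.35, limma adjusted p = 0.0588).

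Capg is also known from macrophages, and of 11 macrophage genes 5 were under 0.5 RPKM at E9.5, among them Ptprc, Adgre1 and Cx3cr1. The sum was 6.28 to 12.6 RPKM in flox and 7.88 to 20.8 in null libraries at E9.5, and 13.0 to 27.6 and 26.9 to 46.2 RPKM at E10.5. Of these genes 6 were tested at E9.5 and 8 at E10.5. The limma test called Spi1, a transcription factor of myeloid and early erythroid cells, up at both stages and Lyz2 (lysozyme) down at E9.5. The median difference of the tested macrophage genes was 0.68 at E9.5 and 0.96 at E10.5, against -0.04 and -0.03 over all tested genes. At an unadjusted limma p under 0.05, 3 were up and 1 was down at E9.5, and 4 were up and 0 down at E10.5. The part of macrophages in the rise of Capg was not tested. At E10.5 these macrophage sums overlapped, while the sums of 2 further lists did not. The 10 epicardial genes summed to 251 to 296 RPKM in flox and 333 to 371 in null hearts, with Krt19 (keratin 19) called up. Their median difference was -0.04, near the -0.03 of all tested genes. At an unadjusted limma p under 0.05, 1 epicardial gene was up and 2 were down. The 6 smooth muscle genes summed to 772 to 1439 and 1586 to 1804 RPKM, with Myh11 called up. At E9.5 the smooth muscle sums overlapped, at 1916 to 2587 RPKM in flox and 2002 to 2565 in null libraries. Myh11 was called up and Myocd down there. The median difference of the smooth muscle genes was -0.07 at E9.5 and 0.55 at E10.5. With the epicardial level in the fit at E10.5 Vill (1.93, limma adjusted p = 0.0113) and Capg (1.39, limma adjusted p = 0.0223) were still called, and the part of smooth muscle was not tested.

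Of the 5 genes on either side of Vil1 in the RefSeq table, 6 protein-coding genes were tested at both stages, and the limma test called 2 of them, both down and both at E9.5. At E9.5 Ctdsp1 (a small phosphatase of RNA polymerase II), on the near side before the start of Vil1, fell by 0.28 (SE 0.06, limma adjusted p = 0.0108), from 14.1 ± 0.526 to 11.5 ± 0.875 RPKM (SD, n = 5 each). Bcs1l (an assembly factor of respiratory complex III) fell by 0.37 (SE 0.07, limma adjusted p = 0.00436). Over all tested genes at E9.5, limma called 17.2%, with 10.3% called down. At E10.5 none of the 6 was called, Ctdsp1 having a difference of -0.30 (limma adjusted p = 0.257). Tmbim1 lay higher in every null library at E10.5, at 9.49, 10.4 and 9.74 RPKM in flox and 19.3, 12.4 and 16.3 RPKM in null hearts, and its difference of 0.65 did not pass (limma adjusted p = 0.104). Catip, Slc11a1 and Plcd4 had means under 0.5 RPKM and entered no fit. Plcd4 (a phospholipase C) had no overlap of its groups at either stage, null being higher, at 0.182 ± 0.0629 against 0.373 ± 0.0937 RPKM (n = 5 each) at E9.5 and 0.121 ± 0.0119 against 0.583 ± 0.242 RPKM (n = 3 each) at E10.5. Mir26b, which lies in Ctdsp1, had 0 to 4 reads per library. The last 51 bp of Vil1 overlap the end of Usp37 on the other strand, and the sources used here do not say whether reads were counted by strand. Usp37 held 9.12 ± 0.527 and 9.24 ± 0.592 RPKM (n = 5 each) in flox and null hearts at E9.5, a difference of 0.02 (limma adjusted p = 0.878).

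**Figure D4:**
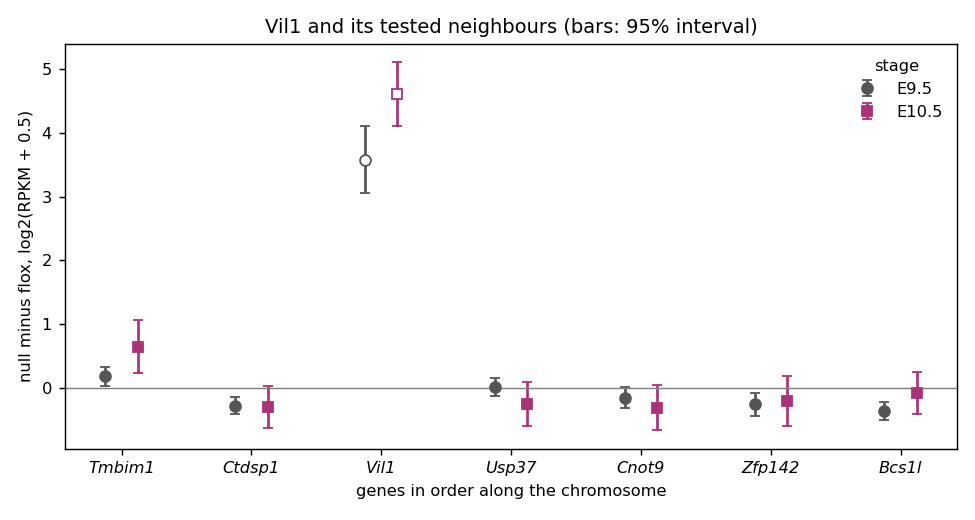
Null minus flox difference on the log2(RPKM + 0.5) scale (vertical axis) for Vil1 (open symbols) and the 6 protein-coding neighbours tested at both stages, in order along the chromosome, at E9.5 (circles) and E10.5 (squares), with 95% intervals. Vil1 is at 3.58 and 4.61 while the called neighbours, Ctdsp1 and Bcs1l at E9.5, lie below 0.

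CHD4 peaks were read from the 3 deposited lists, of 84271, 60749 and 50232 peaks, and 22824 peaks were shared by all 3. Peak scores are the authors', and their scale is not stated. A shared peak touched the gene body with 5 kb on either side in 4 of the 8 members, Gsn, Capg, Svil and Flii, and in 72.4% of 13186 genes tested at E9.5. Vil1, Vill, Avil and Scin had no shared peak in that window. Avil and Scin were under the filter, so the genes behind the 72.4% leave them out while the count of members includes them. In list 1 the peak at Flii, 1819 bp wide with a score of 385 (percentile 99.2), begins 47 bp before the start of Flii. It covers most of the promoter printed above. The list 2 peak, with a score of 505, lies outside that printed window. Capg had 2 shared peaks, Gsn 1 and Svil 5.

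Around Vil1 the shared peaks lay before the gene. There were 5 of them from 30 kb before its start to 5 kb after its end, all before the start, at distances from -22.9 to -9.77 kb. The strongest spans -18.9 to -17.7 kb (chr1:74390435-74391716), is 1282 bp wide, covers the start of Ctdsp1 and has scores of 604, 418 and 409 in the 3 lists, each above percentile 99.5 of its list. In list 1 the next, at -12.4 to -10.8 kb, touches the end of Ctdsp1 and has a score of 427 (percentile 99.4). The peaks of lists 2 and 3 there lie between genes (score 141 in list 2, 138 and 62 in list 3). In those lists the next strongest is the peak near -22.9 kb (246 and 187). The other 3 shared peaks had scores of 240, 25 and 25 in list 1. Inside Vil1 list 1 held 1 peak (score 32), list 2 held 0 and list 3 held 2 (scores 38 and 31), where the median score was 32 in list 1 and 37 in list 3. Which gene these peaks relate to was not tested. At Vill the nearest shared peak was 35177 bp after the start. Lists 2 and 3 each held a peak before the start, centred at -813 and -903 bp (scores 45 and 23, where the median of both lists was 37). List 1 had none at that place but held 2 farther before the start, centred at -2313 and -3689 bp (scores 25 and 50).

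**Figure D5:**
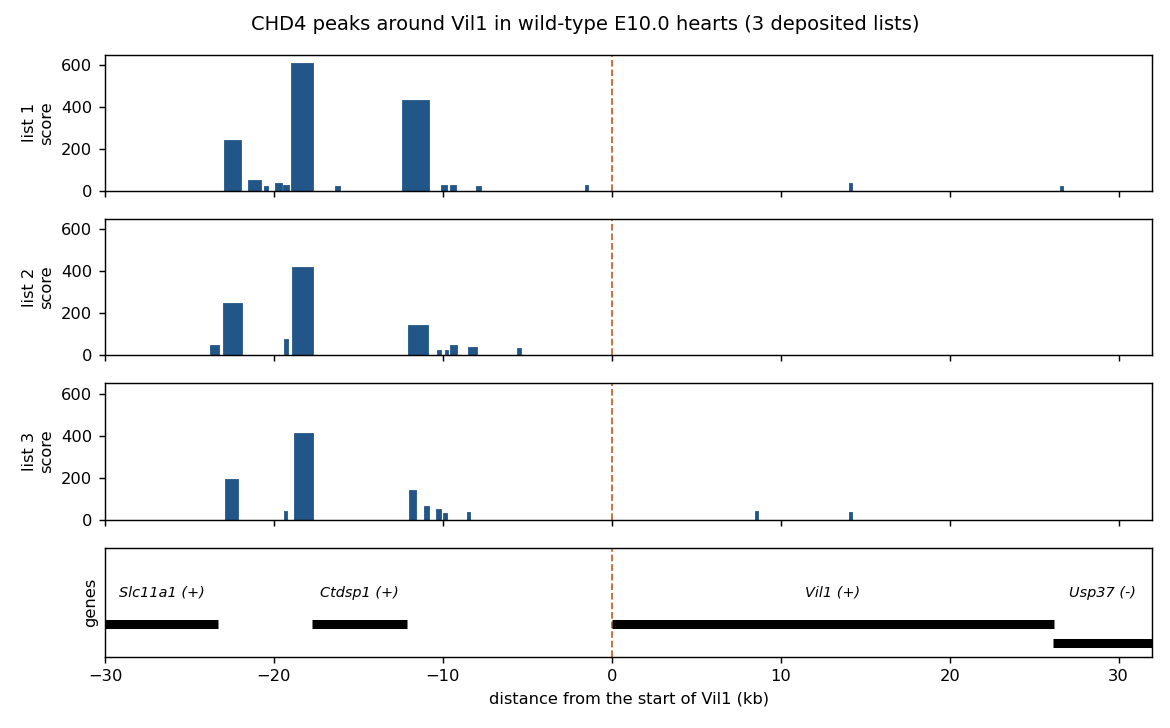
CHD4 peak score (vertical axis, 1 panel per list) against distance from the start of Vil1 in kb, with gene bodies drawn in the lowest panel. The highest peak of each list stands at about the start of Ctdsp1, with scores of 604, 418 and 409, and the peaks inside Vil1 score 38 or less.

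Over the 16 RNA libraries, 12735 genes that reached a mean of 0.5 RPKM at both stages were ranked by the likeness of their pattern to that of Vil1, as Pearson's r of log2(RPKM + 0.5). Family members and predicted gene models (symbols starting with Gm and a number, or ending in Rik) were left out of the ranking. Among the 8 most alike outside the family were Myh11 (0.975), Cpne6 (0.972), Gng3 (0.970), Tnnc2 (0.968), Aatk (0.968), Galnt14 (0.965) and Tesc (0.960). Myh11 is smooth muscle myosin heavy chain and Tnnc2 is fast skeletal troponin C. Myh11 was at 1.29 ± 0.467 and 9.08 ± 1.16 RPKM (n = 5 each) at E9.5 and at 0.935 ± 0.459 and 8.70 ± 0.145 RPKM (n = 3 each) at E10.5 in flox and null hearts. Among the tested members r was 0.860 for Vill, 0.838 for Capg, 0.244 for Flii, 0.013 for Gsn and -0.20 for Svil. These values reflect mainly the gap between flox and null libraries: after the mean of each group was taken away, r with Vil1 was between -0.09 and 0.51 for these 7 genes, 0.08 for Vill and 0.12 for Capg. They are descriptions over libraries that share genotype and stage.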

How the data were processed

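Expression was deposited by the authors as RPKM, with the gene length each value was divided by. Multiplied by that length and by depth, 100% of 392144 values came within 0.01 of a whole number, which gave the read counts behind the deposited tables. The submitters' processing notes name DESeq2 (version 1.6.3), HTSeq (0.6.2), Bowtie (1.2.0), SAMtools (1.6), bedtools (2.25.0), MACS2 and the build mm10. They give no strand setting. The authors' deposited log2 ratios are of control over null, and the p-values beside them are the authors' adjusted values. The mean signal and test score in those deposited tables were not used. Each peak score is the authors' own.

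Differences were fitted on log2(RPKM + 0.5) with limma 3.58.1 in R 4.3.3 (lmFit, then eBayes with its trend option) as two-sided tests, separately by stage, on genes whose mean reached 0.5 RPKM, with no covariate. The p-values were adjusted by Benjamini and Hochberg over all tested genes, and a gene was called at an adjusted p under 0.05. Shares of all genes were taken for adjusted calls only, so counts at an unadjusted p have no such share beside them. The stage difference was an interaction. A peak of list 1 counted as shared if both other lists overlapped it by 1 bp or more, and its list 1 interval was used. This was computed in Python 3.11.15 with pandas 2.3.3. The fits were also run on simulated reads with the same spread for every gene and no change in cell make-up. That run does not measure how often calls in the real libraries are wrong. Read depth sets the precision of low genes, and read numbers cover counting error only. Per the labels the replicates are biological. In each group they differed by more than sampling noise.

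The members, lists and named genes were chosen with earlier results of these data known. Named are all members, Chd4, the 5 genes on either side of Vil1, the genes of the 2 actin lists called at both stages or among the 4 smallest p of a list and stage, and the 8 genes most like Vil1, of which 1 is not reported here. Other genes named were chosen after their values were seen. The 2 input libraries of the binding assay were not analysed here, and the only sequences used were the RefSeq promoter windows.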

Additional observations from a re-analysis of the deposited data

Results flagged for a closer look

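Scin in the null hearts at E9.5 had 1 library far below the others. Replicate 1 held 0.119 RPKM, on 7 reads, while the other 4 null libraries lay between 0.334 and 0.385 RPKM. The gap to the nearest library was 0.811 of the group's range, above the 95% limit for 5 samples. Such a gap appears by chance in about 1 of 20 groups, and 16 groups of 5 libraries were examined. The lowest flox library of Scin at E9.5 was replicate 1, at 0.125 RPKM on 8 reads.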

How the results depend on the processing

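Vill kept its direction under all alternatives at both stages, by 1.04 to 1.30 (E9.5) and 1.52 to 1.93 (E10.5), and Capg likewise with 0.54 to 0.84 and 1.1 to 1.42. With the erythroid level in the fit the count of members called at E9.5 went from 3 to 0, and with the endoderm level that at E10.5 went from 2 to 1. Leaving out 1 library gave 1 to 2 calls at E10.5 and 0 to 2 for the stage difference, which median scaling and quantile normalization moved from 0 to 1. Vil1 at E10.5 was 5.64 with a pseudocount of 0.1, 3.94 with 1 and 6.08 with voom, and its stage difference was 1.72 with 0.1 and 2.06 with voom. Svil at E10.5 turned to 0.027 with the erythroid level, 0.036 with the endoderm level, 0.019 with arrayWeights and, without single libraries, ranged from -0.17 to 0.052 (without null replicate 3). The cause of these shifts was not tested. A shared CHD4 peak was at 7 of 8 members with 50 kb on either side, against 88.3% of tested genes. Lists 1, 2 and 3 alone, with 5 kb, gave 8, 5 and 7 members, against 93.3%, 88.2% and 83.1% of tested genes. The tested genes leave out Avil and Scin, which these counts of members include. From 25 kb before to 5 kb after the start, a window chosen after seeing the data, 5 of 7 members with a listed start had a shared peak, Vil1 among them. The share of all genes with a peak in that window was not computed. Depth limits Avil and Scin, with 6 to 35 and 7 to 23 reads per library.

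Calls over all genes at E9.5 went from 2342 to 63 with the erythroid level, 3549 with arrayWeights, 1349 without 3 libraries low in epicardial genes (chosen after seeing the data) and 1537 without null replicate 5. At E10.5 they went from 292 to 162 with no filter, 124, 148 and 134 with the erythroid, epicardial and endoderm levels, 1426 with arrayWeights and 62 to 356 without single libraries. For the stage difference they went from 531 to 860 with quantile normalization, 797 with median scaling, 208 with the epicardial level, 301 with arrayWeights and 4 to 1795 without single libraries. Median scaling moved the share of calls that were up from 40.0% to 52.8% at E9.5 and from 65.7% to 50.1% for the stage difference (50.3% with quantile normalization).

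The labels do not say what a shared replicate number means, and not every same-numbered pair correlated above 0.1, so the libraries were not treated as paired. Same-numbered libraries correlated from -0.14 to 0.52 at E9.5 and from -0.03 to 0.11 at E10.5 in their deviations from group means. The own number was the best match for 3 of 5 and 2 of 3 pairs. With the replicate block 3 members were called at E9.5 (Vill, Capg and, in place of Svil at an adjusted p of 0.0637, Flii at 0.0378 by limma), 2 at E10.5 and 0 for the stage difference, and calls over all genes were 3698, 269 and 722.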
